A study of Mus musculus with 8 samples.

Results

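Class II major histocompatibility complex (MHC) molecules display peptides of proteins taken up from outside the cell to CD4 T cells. The alpha and beta chains pair in the endoplasmic reticulum around the invariant chain, which is trimmed in endosomes to a stub that H2-DM exchanges for peptide. The genes are switched on together by the coactivator CIITA, which interferon-gamma induces, and the pathway is known for its high activity in dendritic cells, B cells and a part of the macrophages.

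The 9 genes described here were H2-Aa, H2-Ab1, H2-Eb1, Cd74, H2-DMa, H2-DMb1, H2-DMb2, H2-Oa and Ciita, chosen by their role in this pathway out of the 32285 genes of the deposited matrices. H2-Aa and H2-Ab1 encode the alpha and beta chain of I-A, and H2-Eb1 the beta chain of I-E, whose alpha chain C57BL/6 mice lack. Cd74 encodes the invariant chain, H2-DMa with H2-DMb1 or H2-DMb2 encodes H2-DM, H2-Oa encodes a chain of H2-O, which inhibits H2-DM, and Ciita encodes the coactivator. In the mm10 genome 7 of them lay within the MHC on chromosome 17: H2-Oa at chr17:34092340-34095234, H2-DMa at chr17:34119541-34139101, H2-DMb2 at chr17:34143307-34151555, H2-DMb1 at chr17:34153072-34160230, H2-Ab1 at chr17:34257689-34269419, H2-Aa at chr17:34282744-34287823 and H2-Eb1 at chr17:34305867-34316674, with H2-Aa on the minus strand and the others on the plus strand. Ciita was at chr16:10480059-10528418 on the plus strand, and Cd74 was on chromosome 18.

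The cells had been sorted as CD45+CD11b+Ly6Chi, which is how monocytic myeloid-derived suppressor cells are recognized, from subcutaneous MC38 tumors, a colon carcinoma line, or from blood of mice with such tumors. Tumors were untreated (control) or had received 1 local dose of 20 Gy ionizing radiation (IR) 3 days before. The mice, on C57BL/6J, had the genotype Ythdf2 fl/fl (WT), or Lyz Cre+ together with Ythdf2 fl/fl (Ythdf2-cKO). Both therefore carried the floxed Ythdf2 alleles, and the Cre, placed at the Lyz2 locus, acts in myeloid cells and in few others. Cells of 5 mice were pooled per group, 1 hashtag antibody marked each genotype, and each of the 4 droplet libraries held 1 tissue and treatment. Each of the 8 groups was thus 1 sample, so no spread between mice could be measured and no test within a single comparison was possible. A model over all 8 groups was not fitted, and every interval here (95%) covers counting error only. Mice of both sexes, 8 to 10 weeks of age, were used.

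The matrices held 51653956 to 87703837 gene unique molecular identifiers (UMIs), and 2145 to 4616 cells were kept per group. In the tumor matrices 55.7% of barcodes with at least 500 UMIs in control and 38.4% in IR had fewer than 20 hashtag UMIs. Of 13144 such barcodes in control and 12927 in IR, 12558 occurred in both, against 24 to 46 for the other pairs of libraries. After all filters, the hashtag minimum among them, 32 kept barcodes were in common. Why so many were shared was not tested, and it limits each comparison of control with IR tumors. Of Lyz2 and Ythdf2, the genes that the genotype alters, only Lyz2 went with the labels. Lyz2, disrupted by the Cre, was 5605 to 14134 counts per 1000000 gene UMIs (CPM) in the cells labelled WT and 83.2 to 138 in those labelled cKO. Ythdf2 was 33.0 to 55.6 CPM in cells labelled WT and 302.5 to 370.2 in cells labelled cKO, the opposite of a loss, although 3′ tags outside the deleted part check nothing. Lyz1, also checked, was higher in cells labelled cKO in each library, by log2 ratios of 3.97 to 5.47. WT and cKO below mean these labels. Of the gate, Itgam (CD11b) was 332 to 644 CPM and Ptprc (CD45) 309 to 1855, both lowest among cells labelled cKO in control tumors, where Ly6c2 was also lowest (153, against 449 to 1470 in the other groups).

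The proximal promoters are shown because the members moved together across cell types, as described further on, and because 3 of them hold both letter strings marked below. Class II promoters carry an X box, bound by the RFX complex, and a Y box, bound by NF-Y, to which CIITA is recruited. RefSeq promoters (GRCm38.p6, 250 bases before to 50 bases after the start) were given for 6 of the 9 genes, 7 entries in all. Capitals mark the letters GCAAC, the core of the X box, and TGATTGG, the Y box, both read on the gene's strand. TGATTGG was in 5 of the 7 entries, shown here, and in neither of the 2 entries of H2-DMa.
H2-Aa: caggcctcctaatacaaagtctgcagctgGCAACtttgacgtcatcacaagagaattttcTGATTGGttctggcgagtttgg
H2-Eb1: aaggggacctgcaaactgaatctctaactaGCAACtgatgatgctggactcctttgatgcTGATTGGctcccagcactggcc
H2-Oa: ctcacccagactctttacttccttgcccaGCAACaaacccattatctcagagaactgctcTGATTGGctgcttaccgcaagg
H2-DMb1: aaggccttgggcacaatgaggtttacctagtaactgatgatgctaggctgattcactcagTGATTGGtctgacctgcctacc
H2-DMb2: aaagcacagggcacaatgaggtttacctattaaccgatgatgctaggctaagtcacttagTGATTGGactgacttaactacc
The stretches lie at chr17:34287852-34287933 (minus strand), chr17:34305746-34305827, chr17:34092274-34092355, chr17:34153068-34153149 and chr17:34145097-34145178 (plus strand), in that order. TGATTGG began 50 bases before the RefSeq start in H2-Aa, 61 in H2-Eb1, 45 in H2-Oa, 63 in H2-DMb1 and 92 in H2-DMb2. In H2-Aa, H2-Eb1 and H2-Oa it followed GCAAC after 26, 25 and 26 bases. TGATTGG was in 7.82% of all 32851 promoters in the table, and GCAAC followed after 15 to 45 bases by TGATTGG in 0.298%. The letters were searched on the gene's strand only and do not overlap each other, and they were chosen after the sequences had been seen. Only exact letters were marked. H2-DMb1 reads gtaactgatgatgct and H2-Eb1 reads GCAACtgatgatgct, so a missing mark in H2-DMb1 and H2-DMb2 does not mean a missing X box. Aligned without gaps, the H2-DMb1 and H2-DMb2 stretches had the same base at 69 of 82 positions (84.1%), against 23.2% to 41.5% for the other pairs. The transcripts of these neighbors are also near copies, so a read that fits both can be counted for either or dropped, and their split is uncertain.

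Tumor cells carried far more class II RNA than blood cells in each of the 8 groups, Cd74 led, and H2-Oa was the least abundant. Each molecule gives 1 tag at its 3′ end whatever its length, so transcript length does not set the order of genes by CPM. How fully the tags of each gene are caught and assigned can still differ between genes and was not tested. Summed over the 9 genes, the level in the tumor was 18469 CPM in control WT, 12707 in control cKO, 11218 in IR WT and 11640 in IR cKO. In blood it was 2902, 3098, 2152 and 2047 CPM in the same order. The lowest tumor group thus stood above the highest blood group, and the control WT tumor stood above the other tumor groups.

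The I-A chains ran in parallel. H2-Aa was at 3238, 2179, 1794 and 1919 CPM in tumor control WT, control cKO, IR WT and IR cKO, and at 438, 457, 296 and 256 in the same groups of the blood. H2-Ab1 was at 3507, 2335, 1963 and 2021 CPM in the tumor and 361, 387, 242 and 226 in blood. H2-Ab1 was thus the higher of the pair in each tumor group and H2-Aa in each blood group. H2-Eb1 was at 2399, 1637, 1274 and 1364 CPM in the tumor and at 200, 209, 133 and 125 in blood.

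Cd74, the invariant chain, was at 8330, 5831, 5488 and 5596 CPM in the tumor and 1583, 1729, 1155 and 1116 in blood, between 2 and 5 times each I-A chain. The loading genes behaved differently in blood. H2-DMa was at 505, 358, 371 and 382 CPM in the tumor and at 199, 188, 217 and 214 in blood, the smallest drop between the tissues apart from Ciita, and its IR groups were the higher ones in blood. H2-DMb1 was at 420, 317, 270 and 296 CPM in the tumor and at 92.1, 95.5, 87.3 and 86.0 in blood.

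The other 3 members were rare. H2-DMb2 was at 30.1, 24.1, 26.4 and 25.7 CPM in the tumor and at 5.09, 4.18, 4.86 and 3.27 in blood. H2-Oa was at 9.17, 4.87, 7.66 and 7.27 CPM in the tumor and at 2.90, 2.56, 1.75 and 1.64 in blood, where it rested on 31 to 62 UMIs a group. Ciita, the coactivator, was at 30.0, 20.8, 24.7 and 28.8 CPM in the tumor and at 22.3, 25.4, 15.5 and 19.6 in blood. Ciita therefore overlapped between the tissues, unlike the other 8 genes.

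**Figure D1:**
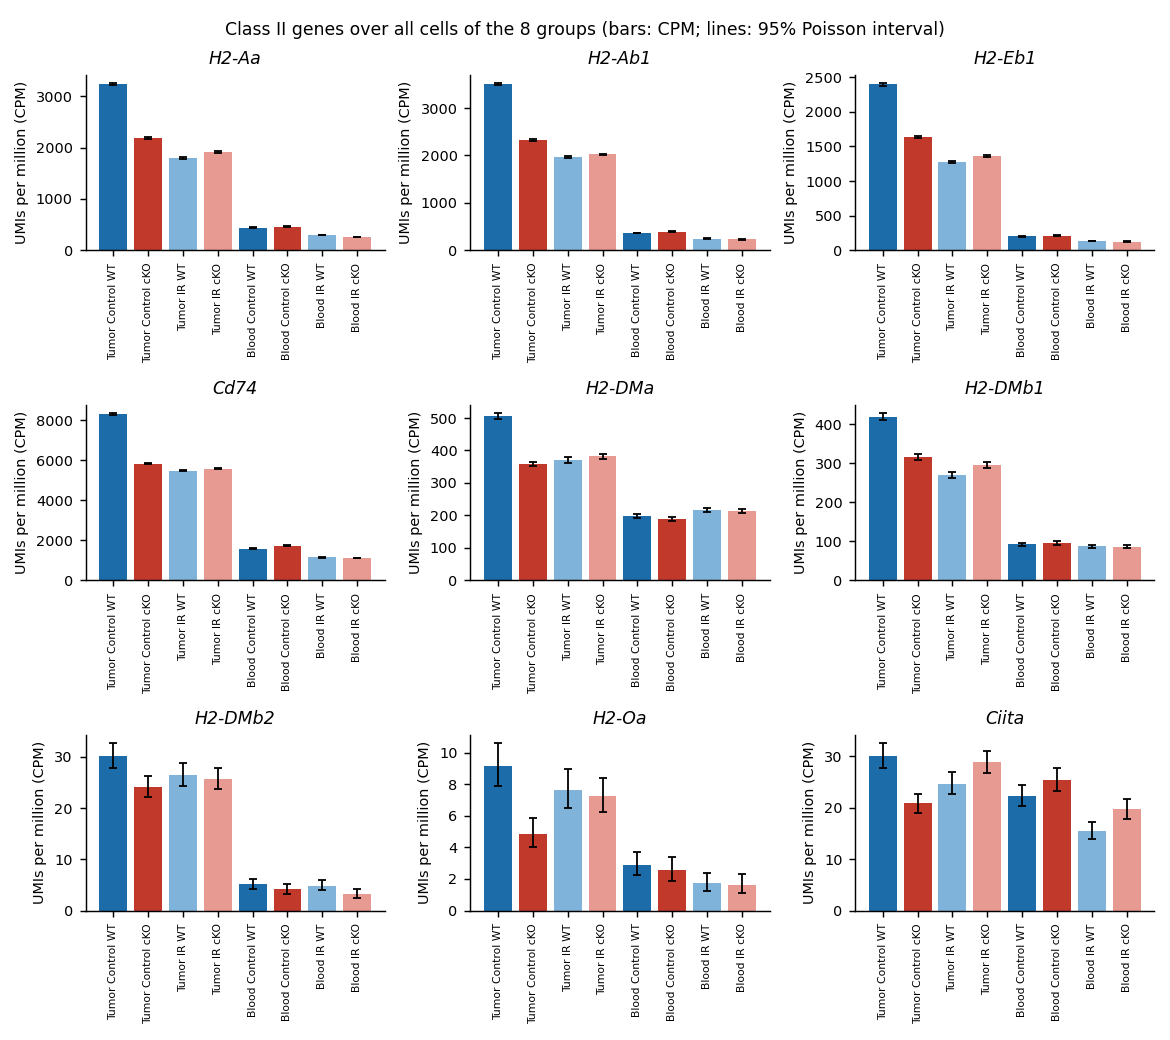
Level of each of the 9 genes (CPM) in the 8 groups, each 1 pool of 5 mice, with 95% Poisson intervals for counting error. Each I-A and I-E chain and Cd74 separate tumor from blood, while Ciita lies between 15.5 and 30.0 CPM in both tissues.

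Which cells carried the RNA was asked next. Cells were clustered without the 9 genes, the other class II and peptide loading genes and the label genes, and clusters were named from markers that hold no class II gene. Even so, H2-Eb1, H2-Ab1 and H2-Aa were among the 10 leading genes of a macrophage-like cluster (cluster 3), so class II level went along with cell state. In the tumor 4891 cells were macrophage-like, 493 conventional dendritic cell (cDC)-like, 149 mature dendritic cell (DC)-like, 618 neutrophil-like, 435 NK cell-like and 495 fibroblast-like, and 4435 fell in clusters left unnamed. In blood 10928 were neutrophil-like, 3186 classical monocyte-like, 825 nonclassical monocyte-like, 407 NK cell-like, 221 cDC-like, 76 B cell-like and 56 T cell-like, and 185 were unnamed. The sort thus held many cells other than monocytes, and fibroblast-like cells passed a CD45+ gate.

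Tumor cDC-like cells had the highest summed level, 53873 CPM. Blood cDC-like cells at 23423 (23234 to 23612) and B cell-like cells at 23263 (22762 to 23773) followed, with intervals that overlapped. Below them came macrophage-like cells at 17545, mature DC-like cells at 13338, the unnamed tumor cells at 8514, nonclassical monocyte-like cells at 6559, the unnamed blood cells at 3638, classical monocyte-like cells at 2224 and T cell-like cells at 1131. Neutrophil-like cells of the tumor were at 770 CPM, fibroblast-like cells at 298 and tumor NK cell-like cells at 259.

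Blood neutrophil-like cells at 51.4 CPM and blood NK cell-like cells at 46.2, with overlapping intervals, were the lowest. Neither type is known for class II, and barcodes of 10 to 99 UMIs, which hold mostly free RNA, carried Cd74 at 1182 to 1567 CPM in the blood libraries and 4766 to 5073 in the tumor libraries. Whether the levels in neutrophil-like and NK cell-like cells of either tissue are free RNA or their own was not tested.

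The chain genes and Cd74 set this order, and the accessory genes departed from it. In tumor cDC-like cells H2-Aa was at 9698 CPM, H2-Ab1 at 10376, H2-Eb1 at 7869 and Cd74 at 23187. In macrophage-like cells the same genes were at 2946, 3240, 2161 and 8174 CPM. Mature DC-like cells, led by Ccr7 and Fscn1, which dendritic cells raise as they mature, held H2-Aa at 3018 CPM but H2-Ab1 at 1515. The H2-Aa to H2-Ab1 ratio there was 1.99 (1.87 to 2.12), against 0.935 in tumor cDC-like and 0.909 in macrophage-like cells.

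H2-DM also differed by cell type. H2-DMa was at 107 and H2-DMb1 at 47.5 CPM in mature DC-like cells, against 1086 and 1156 in tumor cDC-like cells. Classical monocyte-like cells showed the reverse, with H2-DMa at 325 CPM above H2-Ab1 at 236. Their ratio of H2-DMa to H2-Ab1 was 1.38 (1.34 to 1.42), while it was 0.312 in nonclassical monocyte-like, 0.272 in blood cDC-like, 0.166 in macrophage-like, 0.157 in B cell-like, 0.105 in tumor cDC-like and 0.071 in mature DC-like cells. Classical monocyte-like cells thus held the peptide exchange gene with little of the chain it acts on.

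H2-DMb2 and H2-Oa were highest in B cell-like and tumor cDC-like cells. H2-DMb2 was at 446 CPM in B cell-like, 272 in tumor cDC-like, 55.8 in mature DC-like and 24.4 in macrophage-like cells, and at 13.04 in blood cDC-like cells. The ratio of H2-DMb2 to H2-DMb1 was 3.41 (2.44 to 4.85) in B cell-like cells, 1.17 (0.78 to 1.78) in mature DC-like cells, 0.236 in tumor cDC-like cells and 0.018 in blood cDC-like cells. It was 0.057 in macrophage-like, 0.030 in classical and 0.026 in nonclassical monocyte-like cells. The 2 genes carry the similar promoter stretches printed above, and the reads that fit both limit what these ratios can say.

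H2-Oa followed H2-DMb2. It was at 168 CPM in B cell-like and 92.3 in tumor cDC-like cells, and at 39.2 in mature DC-like, 16.2 in blood cDC-like and 3.9 in macrophage-like cells. Over the 40 sums of 1 cell type in 1 group with at least 50 cells, H2-DMb2 and H2-Oa had a Pearson correlation of 0.93, on the log2(CPM + 10) scale. That of H2-Aa with H2-Ab1 was 0.997, and that of Cd74 with H2-Oa was 0.58. These sums share libraries, and their depth differs.

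Ciita was at 163 CPM in blood cDC-like cells, 162 in B cell-like cells and 137 in tumor cDC-like cells. It was at 43.3 in nonclassical monocyte-like, 27.6 in macrophage-like, 21.6 in classical monocyte-like and 17.6 in mature DC-like cells. Macrophage-like cells thus held little more Ciita than classical monocyte-like cells while their summed class II level was 17545 against 2224 CPM.

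Outside the members, the genes whose level ran most like the summed class II level over the 40 sums were Aif1 (r = 0.934), Ifi30 (0.932), Tbc1d9 (0.917), Slamf8 (0.907) and Rasa4 (0.905), out of 5615 genes ranked. Ifi30 encodes a thiol reductase that unfolds antigens in the class II compartment.

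**Figure D2:**
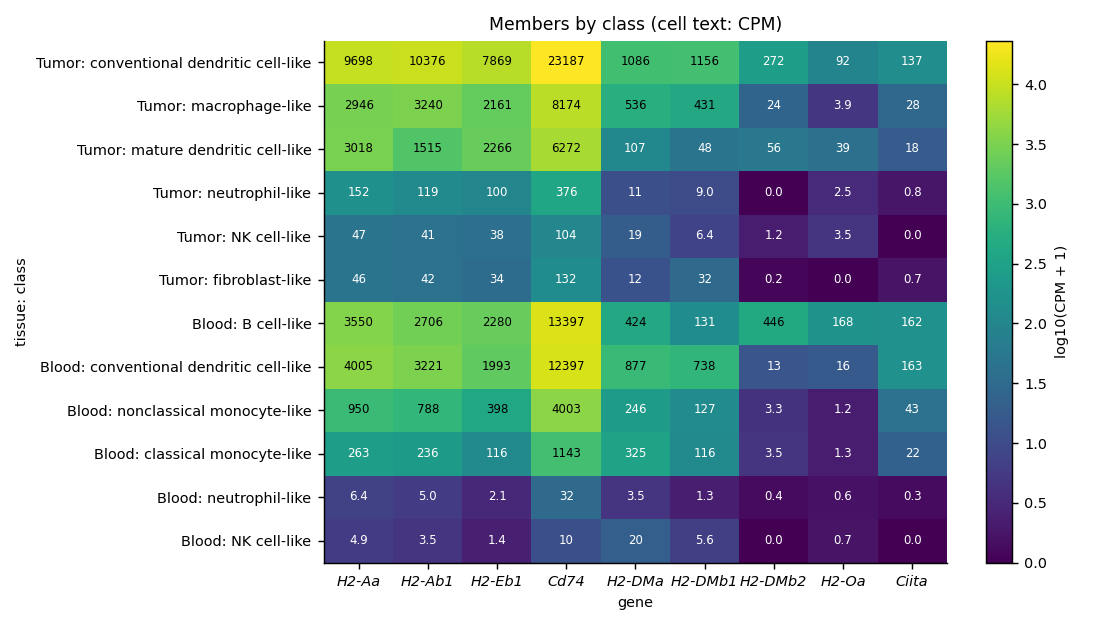
Level of the 9 genes (CPM, log color scale) in each cell type of tumor and blood, all groups of a tissue summed. Tumor cDC-like cells lead for the chains and Cd74 and B cell-like cells for H2-DMb2 and H2-Oa, and classical monocyte-like cells hold H2-DMa above H2-Ab1.

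The share of positive cells and the level in them were then separated. Cells were thinned to 1000 UMIs each, so that depth did not decide detection, and cells below that depth were left out. With at least 1 UMI of any member counted as positive, 99.6% of tumor cDC-like, 100% of B cell-like and 95.9% of blood cDC-like cells were positive, with 53.2, 27.7 and 25.2 class II UMIs per positive cell. Those types thus differed in level and hardly in share. Macrophage-like cells were 84.6% positive with 19.5 UMIs per positive cell, and mature DC-like cells 83.9% with 13.7.

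Monocytes differed in both. Nonclassical monocyte-like cells were 71.2% positive with 9.37 UMIs, and classical monocyte-like cells 45.6% with 5.10. Tumor neutrophil-like cells were 38.6% positive, but with 1.87 UMIs, and tumor NK cell-like cells 21.1% with 1.16. Blood neutrophil-like and NK cell-like cells were 5.15% and 4.18% positive with 1.06 UMIs each, so most positive cells held a single molecule. H2-DMa was found in 25.6% of classical monocyte-like cells and H2-Ab1 in 8.82%. At full depth the shares were 98.3% in macrophage-like, 97.8% in classical and 96.4% in nonclassical monocyte-like, 56.6% in tumor neutrophil-like and 12.99% in blood neutrophil-like cells, so that detection alone hardly parted macrophage-like from monocyte-like cells. Thinning left out 37 tumor neutrophil-like cells, 303 unnamed tumor cells and 94 unnamed blood cells as too shallow, and at most 30 of any other type.

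**Figure D3:**
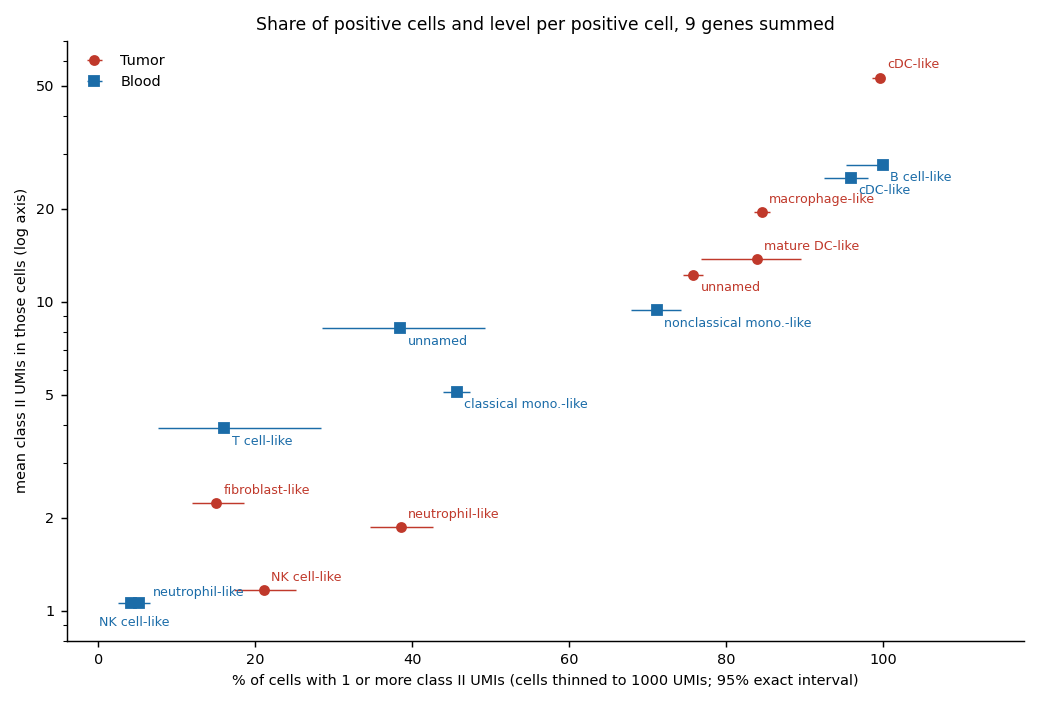
Share of cells with at least 1 class II UMI (percent, 95% exact interval) against the mean class II UMIs in those cells (log axis), in cells thinned to 1000 UMIs, for each cell type of tumor and blood. cDC-like and B cell-like cells are nearly all positive and differ in level, whereas neutrophil-like cells of the tumor reach 38.6% with 1.87 UMIs per positive cell.

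Ciita was rarely caught, but where it was, the other members were higher. Classical monocyte-like cells with a Ciita UMI (427 cells at full depth) held 10.6 UMIs of the other 8 genes per 1000 UMIs on average, and those without (2777) held 1.03. The median depth was 10964 and 11228 UMIs, so the cells with Ciita were not the deeper ones. In nonclassical monocyte-like cells the values were 15.2 and 3.87 and in macrophage-like cells 33.6 and 13.1, where the cells with Ciita were deeper (9104.5 against 7589.5 UMIs). In mature DC-like cells they were 44.8 and 9.01, from only 10 cells with Ciita. In cDC-like cells of both tissues they were 46.6 and 40.01, with median depths of 9501 and 7664 UMIs, and in B cell-like cells 28.4 and 27.0, so the gap was small where nearly every cell was positive. Part of the difference in mixed types can be a few cells of another type within them, which was not tested.

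A few cells held a large part of the blood class II RNA. cDC-like cells were 2.2%, 1.3%, 1.1% and 0.7% of the blood cells in control WT, control cKO, IR WT and IR cKO, and held 43.1%, 18.2%, 27.7% and 21.7% of the class II UMIs. Classical monocyte-like cells held 27.7%, 39.95%, 41.9% and 55.0% in the same order, and nonclassical monocyte-like cells 22.8%, 36.3%, 23.7% and 20.1%. In the tumor, macrophage-like cells held 61.5%, 76.3%, 55.4% and 56.1% and cDC-like cells 18.8%, 11.9%, 22.9% and 20.4%.

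IR and control tumors were compared next. In tumor and in blood, IR and control cells came from separate droplet libraries, so IR cannot be told apart from library here. All 9 genes were lower in IR than in control among WT tumor cells, by log2 ratios of CPM from -0.91 for H2-Eb1 to -0.19 for H2-DMb2 (-0.36 to -0.02). H2-Aa was at -0.85, H2-Ab1 at -0.84, Cd74 at -0.60, H2-DMb1 at -0.64, H2-DMa at -0.45, Ciita at -0.28 (-0.46 to -0.11) and H2-Oa at -0.26 (-0.58 to 0.06), and the sum was at -0.72 (-0.73 to -0.71). The interval of 8 of 9 lay below 0. No member was past 2-fold, while 2.58% of the genes with at least 100 UMIs were past it higher and 3.27% lower. The median log2 ratio of the members was -0.602, and that of all genes tested -0.131.

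In cKO tumors the difference was smaller, and a change in cell mix stood beside it. The sum was at -0.13 (-0.13 to -0.12), with 5 members lower and 4 higher, among them Ciita at 0.47 (0.30 to 0.64), H2-Oa at 0.57 (0.23 to 0.93) and H2-DMa at 0.09 (0.05 to 0.14). None was past 2-fold, against 5.25% of genes higher and 17.1% lower, and the median was -0.059 against -0.179 for all genes. The direction of the sum depended on scaling, since it was 0.08 with TMM factors. Fibroblast-like cells, large and poor in class II, gave 30.7% of the UMIs in control cKO tumors and 5.25% in IR cKO tumors, and 16.8% and 9.63% in WT. The 7 fibroblast markers summed to 1237 CPM in control cKO, 212 in IR cKO, 733 in control WT and 423 in IR WT, with Lum at 0 in both IR groups, and to at most 0.9 CPM in blood.

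Without the fibroblast-like cells, an alternative added after the data had been seen, IR went with less class II RNA under both labels. The sum then was 22132 CPM in control WT, 18245 in control cKO, 12345 in IR WT and 12266 in IR cKO. The log2 ratio, IR over control, was -0.84 in WT, with 9 of 9 genes lower, and -0.57 in cKO, with 7 of 9 lower by intervals below 0. In WT, H2-Eb1 at -1.04 (-1.06 to -1.01) was then the 1 member past 2-fold lower, where 2.85% of genes were lower and 2.59% higher by that much. In cKO the exceptions were H2-Oa at 0.12 (-0.22 to 0.48) and Ciita at 0.02 (-0.14 to 0.19), and H2-DMa turned to -0.35 (-0.39 to -0.31).

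The share of positive cells moved less than the level in them. In thinned WT tumor cells 78.1% were positive in control and 70.4% in IR, and the UMIs per positive cell were 24.8 and 14.6, log2 ratios of -0.15 for the share and -0.76 for the level. In cKO tumor cells 71.1% and 76.2% were positive with 20.4 and 14.0 UMIs, log2 ratios of 0.10 and -0.54. The level in positive cells was thus lower after IR under both labels. At full depth 93.7%, 94.2%, 89.97% and 92.0% of cells were positive in control WT, control cKO, IR WT and IR cKO. For single genes the share moved more. H2-Ab1 was found in 54.3%, 48.2%, 38.3% and 42.6% of thinned tumor cells in that order, and Cd74 in 70.3%, 62.0%, 60.4% and 66.8%. For H2-DMa, which gave 1.38 to 1.48 UMIs per positive cell, the shares were 35.1%, 27.6%, 26.9% and 25.5%, and the level could hardly vary.

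Macrophage-like cells, the main source, also stood higher in both control groups than in both IR groups. Their summed level was 27011 CPM in control WT, 19182 in control cKO, 13062 in IR WT and 12953 in IR cKO. In WT the log2 IR ratio was -1.23 for H2-Aa, -1.21 for H2-Ab1 and -1.38 for H2-Eb1, which were past 2-fold lower, where 3.93% of the 7992 genes tested were (3.63% higher). Cd74 was at -0.86, H2-DMb1 at -0.94, H2-DMb2 at -0.87, Ciita at -0.77, H2-DMa at -0.71 and the sum at -1.05. In cKO the sum was at -0.57, no member was past 2-fold (5.24% of genes higher, 8.6% lower), and Ciita was at 0.02. The size moved with the setting. At a clustering resolution of 1.2, at 10% mitochondrial UMIs and with class II genes kept for clustering the sum was at -0.49, -0.51 and -0.56 in WT and at -0.29, -0.20 and -0.17 in cKO.

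By gene, H2-Ab1 was at 5333 CPM in control WT macrophage-like cells, 3538 in control cKO, 2310 in IR WT and 2239 in IR cKO, and Cd74 at 11867, 8744, 6522 and 6374. Ciita was at 36.5, 26.7, 21.4 and 27.2 CPM, so that the IR groups, alike in the chains, differed in the coactivator, by a log2 ratio of cKO to WT of 0.35 (0.09 to 0.60). A Ciita UMI was found in 3.91% (2.74 to 5.4) of thinned cells in control WT, 2.33% (1.51 to 3.42) in control cKO, 1.08% (0.59 to 1.81) in IR WT and 3.39% (2.56 to 4.39) in IR cKO. The chains were found more often and at higher counts in control WT, H2-Ab1 in 75.1% of its cells with 7.62 UMIs each, against 47.6% with 4.40 in IR WT and 50.6% with 4.24 in IR cKO. For any member 92.5% of thinned cells were positive in control WT, 83.7% in control cKO, 79.4% in IR WT and 84.9% in IR cKO, with 30.4, 21.7, 15.2 and 14.6 UMIs per positive cell. The share of macrophage-like cells with at least 20 class II UMIs was 56.5%, 37.9%, 24.4% and 24.8% in that order.

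Those cells were not in the same clusters in both treatments. In WT 678 of 895 control macrophage-like cells were in cluster 3, led by class II genes, Cxcl9 and Clec4n, and 790 of 1296 IR cells were in cluster 5, led by interferon-induced genes such as Ifit2 and Rsad2. Within cluster 3 the summed level was 33143 CPM in control WT, 25011 in control cKO, 19787 in IR WT and 17493 in IR cKO, a log2 IR ratio of -0.74 in WT and -0.52 in cKO. Within cluster 5 it was 13891 in control WT from only 52 cells, 7815 in IR WT and 8607 in IR cKO. A cluster that holds mostly cells of 1 library may be that library and not a state of its own.

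The Folr2 and C1qa macrophage-like cluster 12 was at 7382 CPM in control WT, 9340 in control cKO and 8084 in IR cKO. Its level was thus below that of cluster 3 although its C1qa was at 4302 against 905 CPM. The unnamed cluster 7, led by Hspa1a, Mmp13 and Mmp12 and highest in Arg1 (7898 CPM, against 4098 in cluster 3), was at 7991, 8643, 4964 and 6181 CPM in control WT, control cKO, IR WT and IR cKO. It raised 7 macrophage markers, as many as cluster 3, but stayed unnamed because Il7r, a T cell marker, was among its leading genes. Its 1198 cells are therefore outside the macrophage-like levels and shares given above. The unnamed cluster 4, led by Adora2b and Havcr2, was at 12012, 9447, 7020 and 7615 CPM. Each of clusters 3, 4 and 7 was thus lower in IR than in control under both labels.

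cDC-like cells of the tumor were close between the treatments. Their summed level was 54818, 56197, 53178 and 52067 CPM in control WT, control cKO, IR WT and IR cKO, from 82 to 154 cells a group. H2-Ab1 was at 10430, 10877, 10215 and 10168 CPM there and Ciita at 101.1, 143, 136 and 176. Chains stayed level across groups whose Ciita ranged more widely, and the log2 IR ratio was -0.04 in WT and -0.11 in cKO. The difference between cell types was not tested. Split by cluster, the difference of -7251 CPM between IR and control in the WT tumor sum was made of -1453 from the cluster mix and -5798 from levels within clusters. In cKO the parts were 2588 and -3655 CPM.

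**Figure D4:**
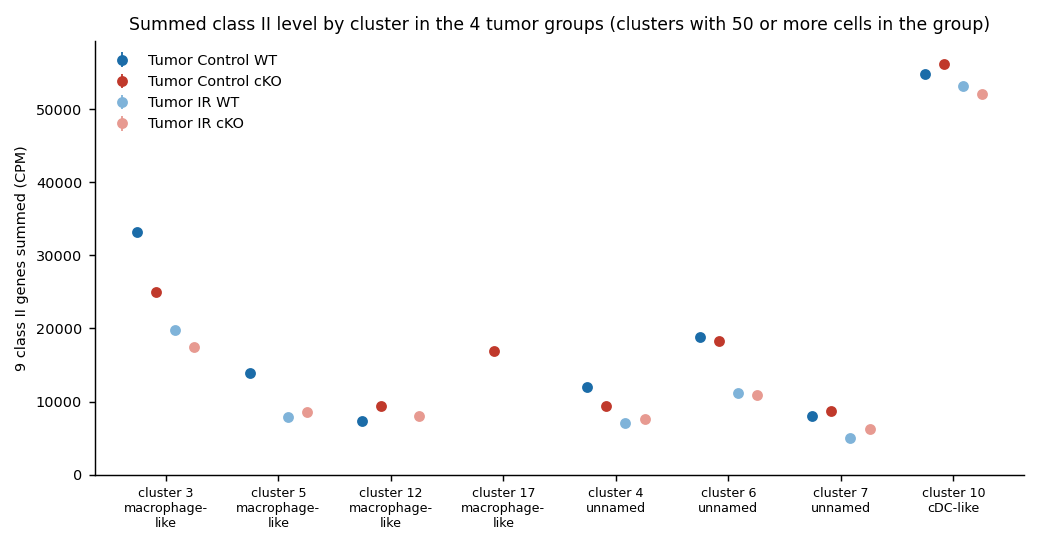
Summed class II level (CPM) in each tumor cluster for control WT, control cKO, IR WT and IR cKO, with 95% counting intervals. Macrophage-like cluster 3 stands at 33143 CPM in control WT and at 17493 in IR cKO, whereas cDC-like cluster 10 stays between 52067 and 56197 in the 4 groups.

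Summed over all blood cells, IR went with lower chains and Cd74 and with slightly higher H2-DMa. In WT the log2 IR ratio was -0.56 for H2-Aa, -0.58 for H2-Ab1, -0.60 for H2-Eb1, -0.45 for Cd74, -0.52 for Ciita and 0.13 (0.07 to 0.19) for H2-DMa, and the sum was at -0.43. In cKO they were -0.84, -0.78, -0.75, -0.63, -0.37 and 0.19 (0.12 to 0.25), and the sum was at -0.60. None was past 2-fold, against 0.358% of genes higher and 0.942% lower in WT and 0.421% and 0.947% in cKO. The member medians were -0.523 and -0.500, and those of all genes 0.034 and 0.072.

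The blood difference moved with the dendritic cells in WT. The 10 cDC markers summed to 192 CPM in control WT, 166 in control cKO, 145 in IR WT and 137 in IR cKO, with none at 0. Without the cDC-, mature DC- and B cell-like cells (added after the data had been seen) the log2 ratio of the sum was -0.10 in WT and -0.66 in cKO. Split by cluster, the WT difference of -750 CPM was made of -509 from the cluster mix and -241 from levels within clusters. In cKO the difference of -1052 CPM was made of -734 and -317. Nonclassical monocyte-like cells were 8.7% of control cKO and 2.9% of IR cKO blood cells, and 4.9% and 4.1% in WT. In WT the share of positive cells was 19.3% in control and 16.7% in IR, with 8.07 and 6.23 UMIs per positive cell, and in cKO 21.5% and 17.3%, with 8.37 and 5.51.

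The labels differ in the Cre at Lyz2 as well as in the deletion of Ythdf2, and these cannot be told apart here. Their comparison gave its largest values over all cells, with none left out, in control tumors. All 9 genes were lower in cKO than in WT there with intervals below 0, H2-Aa at -0.57, H2-Ab1 at -0.59, H2-Eb1 at -0.55, Cd74 at -0.51, H2-DMa at -0.50, H2-DMb1 at -0.41, H2-DMb2 at -0.32, H2-Oa at -0.91 (-1.26 to -0.57) and Ciita at -0.53, and the sum at -0.54. None was past 2-fold, against 3.5% of genes higher and 1.37% lower, and the member median was -0.528 against 0.108. Without fibroblast-like cells the sum was at -0.28, with 9 genes lower and 8 intervals below 0, so the fibroblast-like share went with much of the difference. In macrophage-like cells the sum was at -0.49 and in cluster 3 at -0.41. Cluster 4 was also lower in cKO, but clusters 7 and 12 and the cDC-like cells were higher, as given above. Cluster 12, with a level below that of cluster 3, held 322 of 1073 macrophage-like cells in cKO and 139 of 895 in WT. Over all cells the difference of -5762 CPM was made of -3263 from the cluster mix and -2499 from levels within clusters. No member was past 2-fold in macrophage-like cells (1.56% of genes higher and 0.812% lower).

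In IR tumors the labels were close. The ratios of the 9 genes ran from -0.08 for H2-Oa to 0.22 for Ciita, and the sum was at 0.053, or -0.0092 without fibroblast-like cells. None was past 2-fold (0.21% of genes higher, 1.01% lower). In macrophage-like cells the sum was at -0.01, where 0.11% and 0.184% of genes were past 2-fold. The member median was 0.044 and that of all genes 0.031.

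In blood the cKO to WT ratio of the sum was 0.09 in control and -0.07 in IR, and 0.64 and 0.09 without the cDC-, mature DC- and B cell-like cells, and no member was past 2-fold (0.674% and 1.55% of genes in control, 0.145% and 0.498% in IR, higher and lower). Ciita was at 0.19 in control and 0.34 in IR. Classical monocyte-like cells held a difference that the whole blood did not show. Their summed level was 2029 CPM in control WT, 3183 in control cKO, 1887 in IR WT and 2042 in IR cKO, so control cKO stood apart from the other 3 groups.

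Among classical monocyte-like cells of control blood the log2 ratio of cKO to WT was 1.03 for H2-Eb1, 0.97 for H2-Ab1, 0.85 for H2-Aa and 0.69 for Cd74, and -0.03 for H2-DMa. H2-Eb1 was the 1 member past 2-fold among 7 with at least 100 UMIs, where 0.397% of genes were past it higher and 0.186% lower. The share of positive cells was 47.2% in WT and 45.8% in cKO, with 4.45 and 7.60 UMIs per positive cell, and 2.5% and 6.2% of cells held at least 20. H2-Ab1 was found in 7.99% (6.23 to 10.1) of cells in WT and in 13.6% (11.2 to 16.3) in cKO, Cd74 in 25.7% and 29.5% and H2-DMa in 24.6% and 23.6%. The labels thus differed in the chains and in the UMIs per positive cell, and not in the share positive for any member. At full depth 98.1% and 96.3% were positive. cDC-like cells were 2.2% and 1.3% of these bloods, and whether some of them were named classical monocyte-like was not tested. Nonclassical monocyte-like cells were at 6595, 6914, 5705 and 7021 CPM in the same order of groups.

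**Figure D5:**
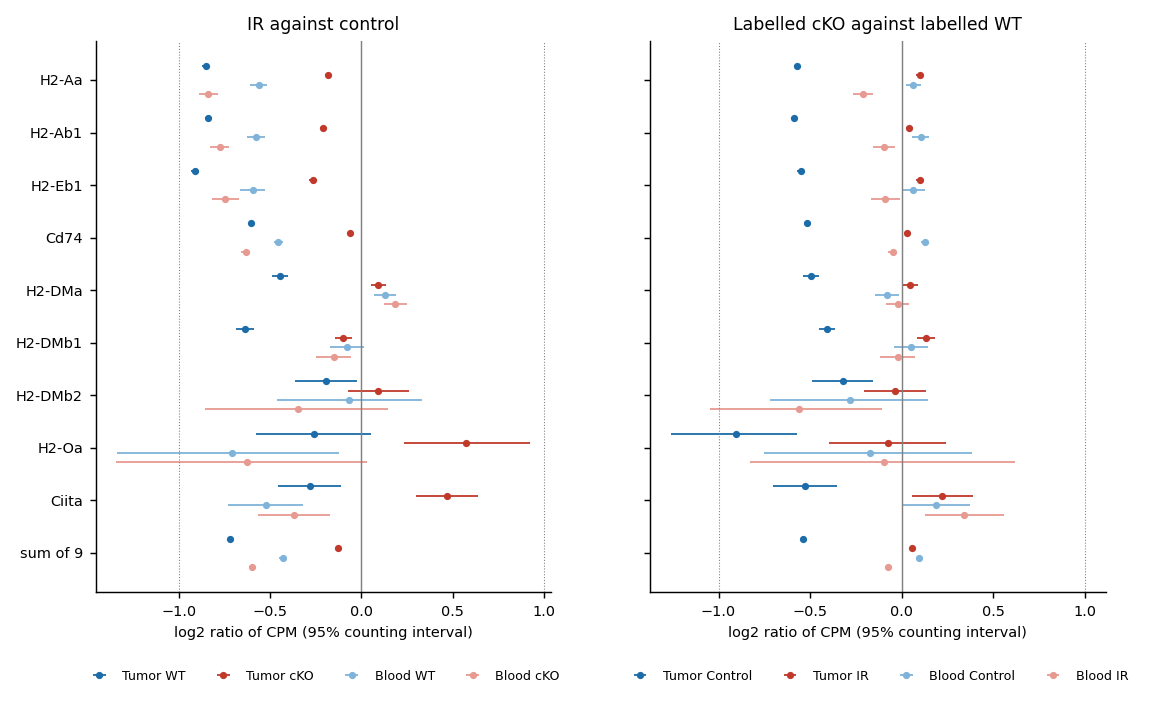
Log2 ratio of CPM for each gene and the sum of 9 with 95% counting intervals: IR against control within each tissue and label (left) and the label cKO against WT within each library (right), with dotted lines at 2-fold. Control WT tumors stand above both IR WT and control cKO tumors for all 9 genes, and no point passes 2-fold in all cells.

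Other genes of the pathway were read from lists of fixed members. In WT tumors no gene of the other class II and loading list (0 of 5), the promoter factors that assemble with CIITA (0 of 7), the interferon-gamma signaling list (0 of 9) or the costimulators (0 of 3) was past 2-fold with IR, with medians of -0.21, -0.02, 0.10 and 0.39. Of the negative regulators of surface class II, 1 of 4 was, Il10 at -1.87, while Marchf1, whose product ubiquitinates class II for degradation, was at 0.75 and Socs1 at 0.67. Over all genes tested 2.58% were past 2-fold higher and 3.27% lower.

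In cKO tumors, with IR over control, Marchf1 was at 1.57, Socs1 at 1.17 and Il10 at -2.48, and of the costimulators Cd80 was at 1.51 and Cd86 at 1.22. Among all genes tested there, 5.25% were past 2-fold higher and 17.1% lower. No promoter factor (0 of 7, median -0.09) and no other class II or loading gene (0 of 5, median 0.13) was past 2-fold. Without fibroblast-like cells Marchf1 was at 1.12, Socs1 at 1.21, Il10 at -2.92, Cd80 at 1.07 and Cd86 at 0.78. Under that setting 7 of the 9 members were lower in IR, and Ciita and H2-Oa were not. Whether any of these regulators bears on the members was not tested.

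Between the labels in control tumors, Ifng was past 2-fold lower in cKO at -3.21, the only 1 of the 9 interferon-gamma genes, whose median was -0.44. Of all genes tested 1.37% were past 2-fold lower and 3.5% higher. Ifng was at 382 CPM in tumor NK cell-like cells and at or near 0 in all other tumor cells, and the 8 NK cell markers summed to 559 CPM in control WT and 206 in control cKO, the part of which in the value was not tested. In IR tumors and in the blood no gene of any of the 5 lists was past 2-fold. Among the genes with a class II role that are not members, H2-Ob, the partner of H2-Oa, was at 358 CPM in B cell-like and 51.9 in tumor cDC-like cells, the types in which H2-Oa was highest. Ctss, the protease that trims the invariant chain, was at 3141 CPM in macrophage-like cells.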

How the data were processed

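The authors deposited raw UMI counts, per the file headers, of genes and hashtags from 10x Genomics 3′ v3.1 libraries, counted with Cell Ranger on mm10 (GENCODE vM23). The submitters' processing notes named Cell Ranger 6.0.1 and Seurat 4.0.6, and the headers named Cell Ranger 4. The mRNA and hashtag libraries of the same droplets were taken to be joined in each matrix. The deposited counts were not normalized, and all barcodes were present, so cells were called again, from a UMI threshold and a test against barcodes ranked 45000 to 90000 (10000 simulations, false discovery rate 0.01) for those of at least 500 UMIs. At least 200 genes and at most 25% mitochondrial UMIs were required.

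Barcodes with at least 20 hashtag UMIs were labelled WT where hashtag B0301 was at least as high as B0302, and cKO where B0302 was at least 4 times B0301. The hashtags were tied to genotypes by the rule that defined these gene sets, not by the labels of the deposit, and barcodes between the rules were left out (269 to 379 a library). DoubletFinder, which the methods used at 6%, was replaced by the 6% of barcodes with the highest Scrublet score (scanpy 1.11.5). Clusters came from Seurat 5.3.0 (2000 variable genes without class II and label genes, 40 principal components, resolution 0.8) and were named from fixed marker lists, 121 genes for 14 classes. A cluster needed 3 markers found in 25% of cells and raised 2-fold, and its 10 leading genes could not favor another class. A rebuilt name can differ from the study's.

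UMIs were summed per group. CPM has exact Poisson intervals, log2 ratios (1 UMI added, scaled to depth) exact conditional binomial intervals, and shares Clopper-Pearson intervals, all at 95%. Cells are not replicates, so no test was run. A gene was called where its ratio passed 2-fold with at least 100 UMIs in both groups together. The ratio and its interval were tested on simulated counts with known folds. Positive shares used cells thinned to 1000 UMIs, which left out 9 to 132 cells a group; 2000 UMIs was the alternative. Gene positions came from GENCODE vM21, also mm10. The genes, the 5 lists of 29 pathway genes and the tests were chosen with earlier results of these data known. The text names the 9 genes, up to 4 genes a list by the largest ratio, and the 5 genes most like the sum. The interferon-gamma list with IR in cKO tumors is not reported here. Genes named beside clusters or as list roles outside this rule were chosen after their values were seen.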

Additional observations from a re-analysis of the deposited data

Results flagged for a closer look

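The IR ratio had opposite signs, with both intervals off 0, for some genes in the 2 labels or tissues, and none of these differences was tested. In the tumor, H2-DMa was at -0.45 in WT and 0.09 in cKO and Ciita at -0.28 and 0.47. Without fibroblast-like cells these became -0.57 and -0.35 for H2-DMa, so the opposite signs ended. Ciita then was at -0.41 (-0.59 to -0.24) in WT and 0.02 (-0.14 to 0.19) in cKO. The cKO interval held 0, so the opposite signs against WT and against blood ended too. It still lay apart from the WT interval and from that of cKO blood (-0.57 to -0.17). In WT, H2-DMa was at -0.45 in tumor and 0.13 in blood. In cKO, Ciita was at 0.47 in tumor and -0.37 in blood.

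The ratio of cKO to WT changed sign between control and IR tumors for 7 genes, from -0.57 to 0.10 for H2-Aa, -0.59 to 0.042 for H2-Ab1, -0.55 to 0.10 for H2-Eb1, -0.51 to 0.028 for Cd74, -0.50 to 0.04 for H2-DMa, -0.41 to 0.13 for H2-DMb1 and -0.53 to 0.22 for Ciita, and for the sum from -0.54 to 0.053. The values in IR tumors are small, and several turned under other settings. Those values of control tumors were also opposite to the ones of control blood for H2-Aa (0.063), H2-Ab1 (0.10), Cd74 (0.13), Ciita (0.19) and the sum (0.094).

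Control and IR blood differed in the same way for H2-Aa (0.063 and -0.21), H2-Ab1 (0.10 and -0.10), Cd74 (0.13 and -0.05) and the sum (0.094 and -0.07). IR tumors and IR blood did so for H2-Aa (0.10 and -0.21), H2-Ab1 (0.042 and -0.10), H2-Eb1 (0.10 and -0.09), Cd74 (0.028 and -0.05) and the sum (0.053 and -0.07). The comparisons that share a group are not independent.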

How the results depend on the processing

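No paired analysis was possible because each group was 1 pool and the labels give no replicate numbers that pair pools, and a fit of the label difference across the 4 libraries was not run. Values are log2 ratios of the sum unless a gene is named, and where no value is given the sum stayed within its counting interval. Of 576 values of single genes in all cells under the alternatives, 390 stayed within it, 167 moved out of it and 19 reversed. The causes of the moves were not tested beyond what each setting leaves out. With a 4-fold hashtag margin for both labels, IR to control was -0.84 in tumor WT and -0.48 in blood WT, and cKO to WT was -0.73 in control tumor, 0.076 in control blood, -0.047 in IR blood and -0.014 in IR tumor, a reversal with H2-Ab1 at -0.040 and Cd74 at -0.032. In macrophage-like cells that margin gave -0.96, -0.60, -0.43 and -0.076 (IR in WT, IR in cKO, labels in control, labels in IR). HTODemux labels gave IR ratios of -0.77 in tumor WT, -0.089 in tumor cKO and -0.56 in blood WT and label ratios of -0.52 in control tumor, 0.16 in IR tumor and 0.051 in IR blood, reversed with H2-Ab1 at 0.049, Cd74 at 0.091 and H2-Eb1 at 0.10. TMM scaling gave IR ratios of -0.57 in tumor WT, 0.079 in tumor cKO (reversed, with H2-Aa at 0.022, Cd74 at 0.15 and H2-DMb1 at 0.11), -0.45 in blood WT and -0.67 in blood cKO, label ratios of -0.61 in control tumor, 0.039 in IR tumor and -0.12 in IR blood, and -0.90, -0.44, -0.53 and -0.064 in macrophage-like cells. A further setting used every barcode of at least 500 UMIs in place of the called cells. The hashtag minimum still applied, so the many tumor barcodes below it stayed out and their effect was not tested. IR ratios then were -0.15 in tumor cKO, -0.46 in blood WT and -0.65 in blood cKO. Label ratios were -0.53, 0.037 and 0.12 in control tumor, IR tumor and control blood. Without the Scrublet step, IR ratios were -0.73 and -0.16 in tumor WT and cKO, label ratios -0.52, 0.13 and -0.048 in control tumor, control blood and IR blood, and macrophage-like values -1.02, -0.71, -0.33 and -0.017. At 10% mitochondrial UMIs, IR ratios were -0.70 and -0.15, label ratios -0.52, 0.034 and 0.11 in control tumor, IR tumor and control blood, and macrophage-like values -0.51, -0.20, -0.49 and -0.18.

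Settings added after the data were seen moved more. Without cDC-, mature DC- and B cell-like cells, IR ratios were -0.84 and -0.26 in tumor WT and cKO and -0.10 and -0.66 in blood, and label ratios -0.48, 0.10, 0.64 and 0.087 in control tumor, IR tumor, control blood and IR blood. The last reversed, with H2-Eb1 at 0.18, H2-Ab1 at 0.12, H2-Aa at 0.016 and Cd74 at 0.088, as did H2-DMa in control blood (0.047), H2-DMb2 in control tumor (0.026) and H2-Oa for IR in tumor cKO (-0.14). Without fibroblast-like cells, values were -0.84 and -0.57 for IR, -0.28 and -0.0092 for labels in tumor, with H2-Ab1 at -0.024, Cd74 at -0.033 and H2-DMa at -0.019 reversed for labels in IR tumors and H2-DMa at -0.35 for IR in cKO, and H2-Eb1 for IR in WT passed 2-fold at -1.04. For macrophage-like cells, in the order given above, a broader class gave -0.84, -0.56, -0.30 and -0.025, cluster 3 alone -0.74, -0.52, -0.41 and -0.18, resolution 0.4 -1.01, -0.68 and -0.33 (first 3 of the order), resolution 1.2 -0.49, -0.29, -0.46 and -0.26, and clustering with class II and label genes kept -0.56, -0.17, -0.52 and -0.14. Thinned to 2000 UMIs, the log2 ratio of IR to control in the tumor was -0.018 for the share of positive cells and -0.82 for the level in WT, and 0.12 and -0.54 in cKO. No member passed 2-fold in all cells at a minimum of 20 UMIs or with TMM either. Depth limits H2-Oa and H2-DMb2 in blood, at 31 to 109 UMIs a group, and the absence of replicates limits every ratio.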
